A study of Mus musculus with 12 samples.

Results

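The cytosolic ribosomal protein genes of the mouse were taken as the genes with symbols of the form Rpl or Rps and a number, with Rplp0, Rplp1, Rplp2 and Rpsa. Pseudogenes were left out, and a gene needed at least 10 counts in 3 or more of the 12 libraries. The pattern matched 88 symbols of a table of 28030 genes, and 80 of them were members, 48 of the large subunit and 32 of the small subunit. All 80 passed the filter on low counts and were among the 12086 genes tested. Of the other 8 symbols, Rpl10l, Rpl39l and Rpl3l, near copies of large-subunit genes known from testis or muscle, never exceeded 4 counts in a library. Rpl6l, Rps12l1, Rps3a2, Rps3a3 and Rps4l are annotated as pseudogenes.

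The libraries were made from total RNA of hepatocytes of 12-week-old wild-type female mice on normal chow. They form 4 groups of 3: fasted pericentral (fasted PC), fasted periportal (fasted PP), fed pericentral (fed PC) and fed periportal (fed PP) hepatocytes. Pericentral cells surround the central vein of a lobule, and periportal cells the portal vessels. Digitonin, named in the labels, is a detergent used to lyse the hepatocytes of 1 zone, leaving the other zone to be collected. All mice had been trained for 3 days on 16 h without food and 8 h with it, and all received 20% sucrose in the drinking water on the last day. Fasted mice were then left for 24 h without food or sucrose, while fed mice had 4 h of feeding before they were killed. Libraries of a group are labelled as biological replicates, with nothing on which mouse gave which library, so p-values measure only how these libraries spread.

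A ribosome is built from ribosomal RNA and one copy of most ribosomal proteins, which are made in the cytoplasm and carried into the nucleolus for assembly. Most mRNAs of ribosomal proteins, and those of several translation factors, begin with a run of pyrimidines, the 5′ terminal oligopyrimidine (TOP) motif. Through it the kinase complex mTORC1, active in fed cells, and the RNA-binding protein Larp1 control how many of these mRNAs are translated and how well they are kept when they are not. The liver is known to lose protein and ribosomes in a fast and to regain them on feeding.

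Stretches of 60 bases around annotated starts are shown for 4 genes that were higher in fasted PC libraries (Rps9, Rpl28, Rpl7a and Rplp0), for both that were lower after fasting (Rpl7l1 and Rpl22l1), and for Rps6, whose protein is phosphorylated downstream of mTORC1. Each runs 5′ to 3′ from 40 bases before to 20 bases after the start in RefSeq on GRCm38.p6, and capitals mark the longest run of at least 8 pyrimidines lying within 20 bases of the start.
Rps9 (chr7:3704001-3704060, plus strand): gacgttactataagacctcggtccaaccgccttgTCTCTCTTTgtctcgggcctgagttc
Rpl28 (chr7:4792925-4792984, plus strand): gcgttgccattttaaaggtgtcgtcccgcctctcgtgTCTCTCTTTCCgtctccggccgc
Rpl7a (chr2:26910767-26910826, plus strand): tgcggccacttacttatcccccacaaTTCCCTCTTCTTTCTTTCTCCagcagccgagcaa
Rplp0 (chr5:115559427-115559486, plus strand): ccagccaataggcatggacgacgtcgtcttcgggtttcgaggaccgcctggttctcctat
Rps6 (chr4:86857348-86857407, minus strand): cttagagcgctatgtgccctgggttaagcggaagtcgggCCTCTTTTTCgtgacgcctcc
Rpl22l1 (chr3:28805468-28805527, plus strand): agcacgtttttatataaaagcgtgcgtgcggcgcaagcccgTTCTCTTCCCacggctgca
Rpl7l1 (chr17:46782637-46782696, minus strand): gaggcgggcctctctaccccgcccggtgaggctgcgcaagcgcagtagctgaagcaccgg
Rpl7a held the longest run of these, 21 pyrimidines, and Rplp0 and Rpl7l1 held none of 8 or more in this window.

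RefSeq promoters of 300 bases matched 60 of the 80 members by symbol. Members without an entry included Rpl17, Rpl21, Rpl23a, Rpl29, Rpl3, Rpl30, Rpl32, Rpl36, Rpl7, Rpl8, Rplp1, Rps14, Rps20, Rps27a and Rps29. A pyrimidine run of at least 8 within 20 bases of the start was found in 28 of the 60 (46.7%), against 15.9% of 27025 promoters. CCGGAAGT, a site bound by ETS-family factors such as GABP, was found on either strand in 12 of the 60 (20%), against 4% of all promoters. AAGATGGCG, the core of the YY1 motif, was found on either strand in 4 (6.67%), against 1.49% of all promoters. TATAAA, searched on both strands, was found in 6 (10%), against 14.2% of all promoters. The pyrimidine run was searched on the gene's strand alone, and letters of one motif could overlap those of another. These matches describe letters in a fixed window and are not binding sites.

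Libraries held 16245846 to 27449412 estimated counts, and members together took 1.09% to 1.59% of a library. Pericentral and periportal genes followed the labels, with 14 of 14 pericentral markers called higher in fasted PC than in fasted PP and 12 of 14 in fed PC than in fed PP (called here means an edgeR adjusted p under 0.05 over all genes tested). Of 15 periportal markers, 10 were called lower in PC in each feeding state. Fasted PC replicate 1 stood apart in zone genes, with Glul, a pericentral gene, reaching 172 CPM (estimated counts scaled to library size, after TMM), while replicates 2 and 3 held 3639 and 2353 CPM. Sums of markers, here and below, are in CPM of library totals without TMM. Hepatocyte markers summed to 99075 to 170692 CPM, and those of Kupffer, endothelial, stellate, bile duct and lymphoid cells to at most 49.8 CPM per list in any library. In bulk samples, fewer cells of a type and less RNA per cell cannot be told apart.

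In pericentral hepatocytes nearly all ribosomal protein mRNAs had a higher mean level after fasting, by a small and similar amount, and few of them passed the test one by one. The summed share of counts is given as a description, with no test. Members took 1.45%, 1.58% and 1.46% of the counts of fasted PC libraries, against 1.26%, 1.24% and 1.28% in fed PC libraries, so the groups did not overlap. The means were 1.49 ± 0.0721% in fasted PC and 1.26 ± 0.0186% in fed PC (SD, n = 3 each). In periportal hepatocytes the groups overlapped. Members took 1.59%, 1.16% and 1.20% of the counts of fasted PP libraries, against 1.40%, 1.31% and 1.09% in fed PP libraries. These averaged 1.31 ± 0.238% in fasted PP and 1.27 ± 0.161% in fed PP (SD, n = 3 each).

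**Figure D1:**
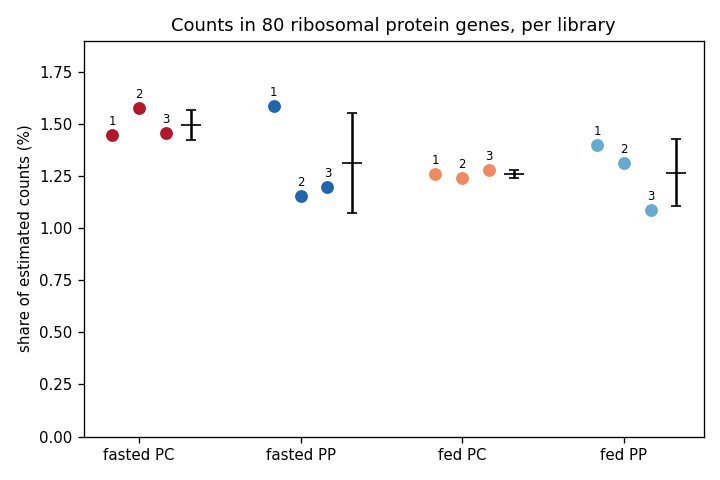
Share of the estimated counts of each library (%) that fell in the 80 ribosomal protein genes, by group. Points are libraries with their replicate number, and the black bars give the mean and SD of 3 libraries. Fasted PC libraries lie between 1.45% and 1.58%, all above fed PC libraries, while fasted PP and fed PP libraries overlap.

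Within the periportal groups, nearly all members moved together in single libraries. In fasted PP replicate 1, 77 of 80 members lay above their group mean, with a median shift of 0.34 on the log2 scale, and in replicates 2 and 3 only 3 did, with shifts of -0.18 and -0.16. In fed PP replicate 3, 2 of 80 lay above the group mean, with a shift of -0.25, and in replicates 1 and 2 it was 77 each, with shifts of 0.15 and 0.10. In the PC groups no library shifted by more than 0.04. Over all genes tested the median shift was at most 0.01 in size in any library. Genes with transcripts of at most 1200 bases moved the same way in those libraries but less far, by 0.14 in fasted PP replicate 1 and -0.10 in fed PP replicate 3. Genes with transcripts over 3000 bases shifted by -0.04 in fasted PP replicate 1 and 0.04 in fed PP replicate 3. The part of transcript length in the members' shift was not tested beyond the length correction given with the fold changes.

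**Figure D2:**
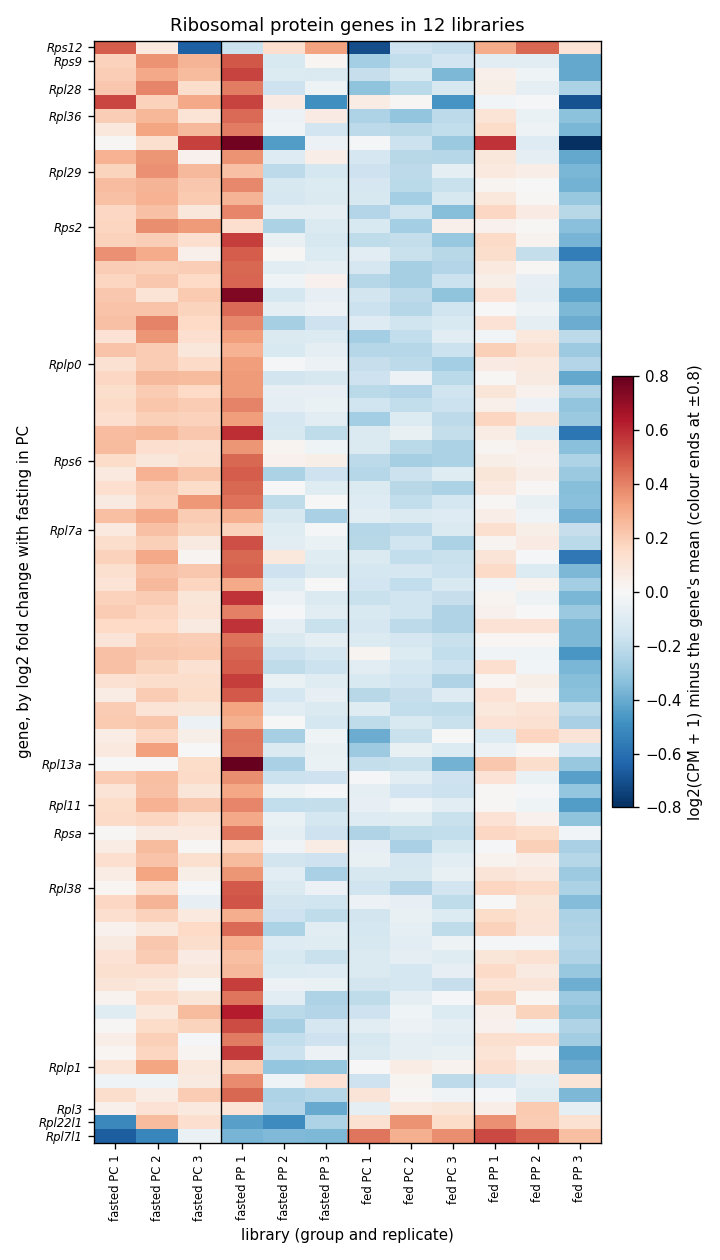
Level of each ribosomal protein gene in 12 libraries, as log2(CPM + 1) minus the gene's mean over the libraries (red above, blue below), with genes ordered by log2 fold change with fasting in PC and some of the genes described here named. The columns of fasted PP replicate 1 and fed PP replicate 3 stand out as a whole, fasted PC columns are mostly red beside fed PC columns, and the bottom rows, Rpl22l1 and Rpl7l1, run against the rest.

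Levels per length ranged widely among members. In TPM (estimated counts per base of 1 annotated transcript, scaled to the same sum in each library), the mean over 12 libraries had a median of 379 TPM over the members and quartiles of 258 and 500.5 TPM. The highest were Rps2 at 1394 TPM, Rplp1 at 977, Rps14 at 829, Rpl41 at 767 and Rpl10 at 739. Among the lowest were Rps12 at 3.07 TPM, Rpl5 at 15.0, Rpl12 at 17.4 and Rpl22l1 at 23.9.

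Several of these low levels went with counts assigned to near-identical rows of the table. A row was taken as a look-alike of a member if it held at least 80% of the member's coding 31-mers, the 31-base words of its coding sequence, and 50 of the 80 members had at least 1. Of the counts of Rps12 and its look-alikes, 99.3% stood on look-alike rows, chiefly Rps12-ps3. The same share was 94.0% for Rpl5, on Gm15500, and 93.0% for Rpl12, on Gm10275. Rpl27a had 53.6% on Gm7536 and Rpl31 had 45.1% on Rpl31-ps8. In all, 11 members had more than 10% elsewhere, and 4 of them more than 50%. Levels of these members are therefore uncertain, since estimated counts divide reads shared by such rows by a model. The library kit does not mark strand, so reads of genes that overlap on opposite strands cannot be told apart either.

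**Figure D3:**
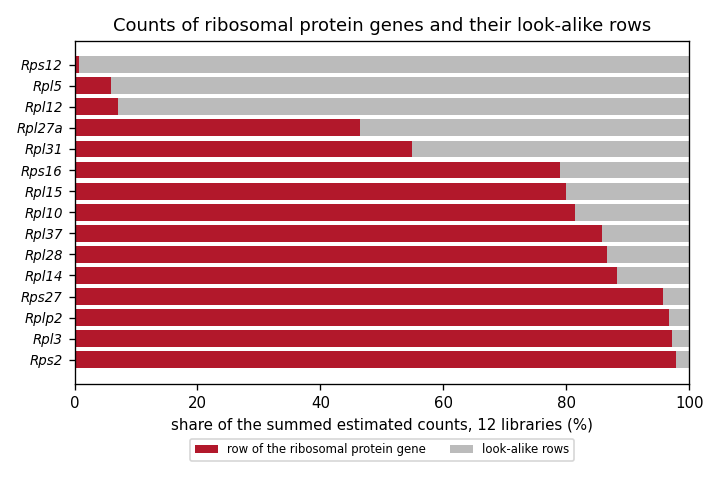
Share of the summed estimated counts of 12 libraries (%) that stood on the row of the ribosomal protein gene (red) and on look-alike rows that hold at least 80% of its coding 31-mers (grey), for the 15 members with 1% or more on look-alike rows. Rps12, Rpl5 and Rpl12 had almost all of these counts elsewhere.

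Fasting in pericentral hepatocytes was tested as fasted PC over fed PC. The median log2 fold change of the 80 members was 0.34 (quartiles 0.26 and 0.40), against 0.00 over all genes tested and 0.04 over 1333 other genes with transcripts of at most 1200 bases. It lay above 0 in 78 of 80 members, and in 72 of 80 every fasted PC library was above every fed PC library, against 21.5% of all genes tested. Single genes were near the limit of the test. At an edgeR adjusted p under 0.05 over all genes, 7 of 80 were called higher, against 11.1% of all genes tested, and 1 was called lower, against 10.2%, in all 8 called against 21.4%. At an unadjusted p under 0.05 it was 37 of 80, against 34.2% of all genes tested. In this fit the 7 higher genes made up no larger share of the members than of all genes, which changed with the fit, as given with the alternatives.

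The small-subunit members had a median of 0.36 and all 32 lay above 0. The 7 genes that passed the test included 2 of them. Rps9, near the mRNA entry channel of the small subunit (chr7:3703993-3706897, plus strand), stood at 233, 264 and 248 CPM in fasted PC libraries, against 170.0, 179 and 185 CPM in fed PC libraries. Its log2 fold change was 0.48 ± 0.15 (SE; edgeR adjusted p = 0.0389). The fasted PC and fed PC libraries did not overlap, and the call held in 16 of 25 fits, the first fit and 24 alternatives.

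Other small-subunit members had like values without passing the test. Rps6 stood at 323, 311 and 319 CPM in fasted PC libraries, against 253, 243 and 245 CPM in fed PC libraries, with a log2 difference of 0.36 ± 0.13 (SE; edgeR adjusted p = 0.0616). Rps2, the member with the highest level per length, had a log2 difference of 0.41 ± 0.14 (SE; edgeR adjusted p = 0.0585). Rps19, mutated in Diamond-Blackfan anaemia in humans, had 0.40, Rps27a, made as a fusion to ubiquitin, had 0.33, Rpsa, also known as a laminin receptor, had 0.27, and Rps25, needed for initiation at some internal ribosome entry sites, had 0.20. Rps12 had the largest value, 1.05 ± 0.77 (SE), from mean levels of 0.799 ± 0.667 CPM in fasted PC and 0.389 ± 0.275 CPM in fed PC (SD, n = 3 each), and its groups overlapped.

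The large-subunit members had a median of 0.31, with 46 of 48 above 0 and 5 called higher. Rpl28 (chr7:4792874-4795066, plus strand) stood at 254, 286 and 240.2 CPM in fasted PC libraries, against 174, 188 and 199.8 CPM in fed PC libraries, a log2 difference of 0.47 ± 0.15 (SE; edgeR adjusted p = 0.0376). Of the counts of Rpl28 and its look-alikes, 13.4% stood on other rows. With look-alike rows added to their members, Rpl28 had 0.46 ± 0.15 (SE; edgeR adjusted p = 0.051) and was no longer called. Rpl36 stood at 117, 123 and 111 CPM in fasted PC libraries, against 86.2, 81.9 and 88.4 CPM in fed PC libraries, a change of 0.45 ± 0.14 (SE; edgeR adjusted p = 0.0353). Rpl29 stood at 132, 151 and 139.9 CPM in fasted PC libraries, against 104, 101 and 110.2 CPM in fed PC libraries, a change of 0.42 ± 0.14 (SE; edgeR adjusted p = 0.0496). In all 3 genes every fasted PC library was above every fed PC library. Rpl7a, which hosts small nucleolar RNAs in its introns (chr2:26910764-26913318, plus strand), stood at 345, 383 and 369 CPM in fasted PC libraries, against 278, 281 and 301 CPM in fed PC libraries. It differed by 0.35 ± 0.11 on the log2 scale (SE; edgeR adjusted p = 0.0445), again without overlap. The calls held in 14 of 25 fits for Rpl28, 16 for Rpl36, 10 for Rpl29 and 13 for Rpl7a.

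The acidic stalk of the large subunit, which recruits and activates elongation factors, is made of Rplp0, Rplp1 and Rplp2. Rplp0, the base of the stalk (chr5:115559467-115563727, plus strand), stood at 459, 487 and 471 CPM in fasted PC libraries, against 372, 364 and 349.9 CPM in fed PC libraries. Its log2 fold change was 0.38 ± 0.13 (SE; edgeR adjusted p = 0.0461) and the groups did not overlap. The call of Rplp0 held in 14 of 25 fits. Rplp2 had 0.30 ± 0.14 (SE; edgeR adjusted p = 0.17) and Rplp1 0.14 ± 0.16 (SE; edgeR adjusted p = 0.57), so neither passed the test. The differences among the 3 stalk genes were not tested.

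Members known for roles beside the ribosome gave values across this range. Rpl5 and Rpl11, which with 5S ribosomal RNA bind the p53 regulator Mdm2, had log2 fold changes of 0.12 and 0.27. The value of Rpl5 rests on its own row alone, while 94.0% of the counts of Rpl5 and its look-alike stood on Gm15500. Rpl13a, a part of the interferon-dependent GAIT complex in human cells, had 0.30, Rpl10a 0.37, and Rpl38, which affects translation of Hox mRNAs in mouse embryos, 0.24. Rpl3, which lies near the peptidyl transferase centre, was among the lowest at 0.04 ± 0.13 (SE; edgeR adjusted p = 0.85), and stood at 298, 315 and 306 CPM in fasted PC libraries, against 274, 307 and 310.1 CPM in fed PC libraries, with overlap. None of these 6 was called.

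Rpl7l1 fell in both zones, where most members had values above 0. Its protein resembles Rpl7, and its yeast counterpart Rlp7 acts in assembly of the large subunit. The gene lies at chr17:46773907-46782672, minus strand. In PC it stood at 32.4, 35.8 and 49.9 CPM in fasted PC libraries, against 70.2, 63.4 and 67.4 CPM in fed PC libraries. In PP it stood at 39.8, 40.3 and 40.2 CPM in fasted PP libraries, against 75.0, 71.8 and 61.4 CPM in fed PP libraries. No fasted library reached the level of any fed library of its zone. It changed in PC with a log2 difference of -0.77 ± 0.14 (SE; edgeR adjusted p = 0.0026) and in PP with -0.79 ± 0.14 (SE; edgeR adjusted p = 0.0026). It was called lower in both zones in all 25 fits, the first fit and 24 alternatives. Its better known relative Rpl7 had log2 fold changes of 0.37 in PC and 0.21 in PP, neither called. Rpl7 was chosen after its values were seen.

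Rpl22l1, a paralog of Rpl22 (chr3:28805436-28807424, plus strand), fell in PP. It stood at 5.12, 4.83 and 5.97 CPM in fasted PP libraries, against 9.68, 8.54 and 8.01 CPM in fed PP libraries, without overlap. The log2 fold change in PP was -0.72 ± 0.21 (SE; edgeR adjusted p = 0.031), and the call held in 19 of 25 fits. It was lost without fasted PP replicate 1 or 2, with any of the 3 fed PP libraries left out, and with fasted PP replicate 1 and fed PP replicate 3 both left out, with edgeR adjusted p from 0.053 to 0.12 and log2 fold changes from -0.63 to -0.78. In PC it stood at 4.79, 8.85 and 8.09 CPM in fasted PC libraries, against 7.99, 9.60 and 8.18 CPM in fed PC libraries, with overlap and a log2 difference of -0.25 ± 0.21 (SE; edgeR adjusted p = 0.42). Rpl22 itself had 0.47 in PC and 0.32 in PP, neither called. Rps27l, a p53-induced near copy of Rps27, had 0.11 in PC and 0.19 in PP, beside 0.41 and 0.33 for Rps27, and none of these values passed the test.

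In periportal hepatocytes the members showed no common change that held across libraries. The median log2 fold change of fasted PP over fed PP was 0.17 (quartiles 0.05 and 0.22), against 0.00 over all genes tested, with 72 of 80 above 0. In edgeR 0 of 80 were called higher, against 8.39% of all genes tested, and 2 were called lower, Rpl7l1 and Rpl22l1, against 9.51% (17.9% either way). DESeq2 and limma voom also called 0 higher and 2 lower, against 10.6% higher and 11.2% lower over all genes in DESeq2 and 8.32% and 9.47% in limma voom. An unadjusted p under 0.05 in edgeR was found for 3 members, the third being Rps9, against 31.5% of all genes tested. In 0 of 80 was every fasted PP library above every fed PP library, against 16.8% of all genes tested. Rps9 stood at 289.6, 189 and 207 CPM in fasted PP libraries, against 194, 193 and 154 CPM in fed PP libraries, a log2 difference of 0.34 ± 0.15 (SE; edgeR adjusted p = 0.14). The median moved with the scaling and its sign depended on single libraries. With library totals in place of TMM it was 0.08, beside -0.08 over all genes tested, and 56 of 80 lay above 0. With a correction for transcript length, chosen after seeing the data, it was 0.12, beside 0.01 over all genes tested, and 71 of 80 lay above 0. With TMM scaling alone the median was 0.26 without fasted PP replicate 2 and 0.25 without fasted PP replicate 3. It was -0.03 without fasted PP replicate 1, 0.04 without fed PP replicate 3 and -0.15 without both, when 5 of 80 lay above 0.

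**Figure D4:**
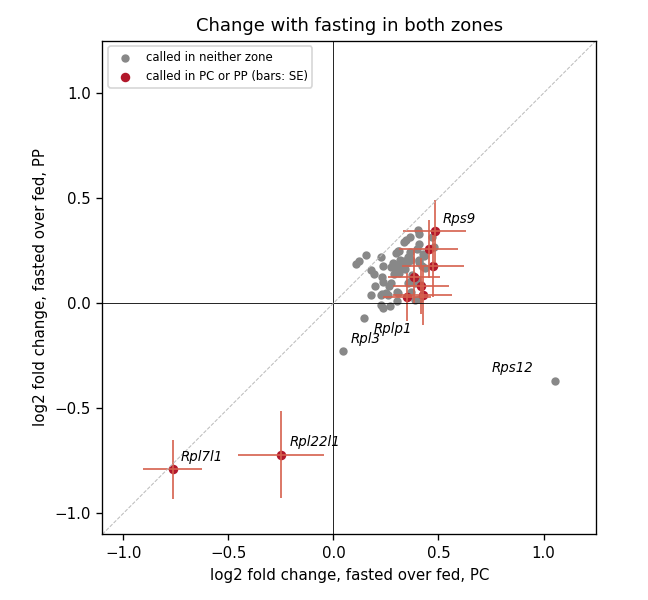
Log2 fold change of fasted over fed in PC (horizontal) and PP (vertical) for the 80 ribosomal protein genes. Values, SE and calls came from the fit across all libraries, so SE and calls of a zone also depend on libraries of the other zone. Red points were called in PC or PP, with bars for the SE, and the dashed line marks equal values. Most points lie right of 0 in PC and nearer 0 in PP, Rpl7l1 lies at about -0.8 on both axes, and Rps12 rests on about 1 CPM.

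The difference between the zones in the response to fasting was tested directly. The median of the difference (PC minus PP) was 0.17 on the log2 scale, with 77 of 80 above 0, against 0.02 over all genes tested. No member was called in edgeR, where 0% of all genes tested were called, and 0 members had an unadjusted p under 0.05, against 3.85% of all genes tested. DESeq2 and limma voom also called 0 members, and over all genes tested DESeq2 called 11 (0.091%) and limma voom 0. No single member was thus shown to respond differently in PC and PP. The size of the median difference depended on single PP libraries. It was 0.34 without fasted PP replicate 1 and 0.27 without fed PP replicate 3, but 0.11 when fed PP replicate 2 was left out. When fasted PP replicate 2 or 3 or fed PP replicate 1 was left out it was 0.06, with 59 or 60 of 80 above 0.

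The zones were also compared within each feeding state. In fasted mice the median log2 fold change of PC over PP was 0.09, with 65 of 80 above 0, and in fed mice it was -0.09, with 70 of 80 below 0. Neither held its sign when 1 PP library was left out, with -0.01 in fasted mice without fasted PP replicate 2 or 3 and 0.00 in fed mice without fed PP replicate 1. The value was 0.25 in fasted mice without fasted PP replicate 1, and in fed mice -0.19 without fed PP replicate 3 and -0.03 without fed PP replicate 2. With library totals in place of TMM it was 0.18 in fasted mice, beside 0.08 over all genes tested, and -0.01 in fed mice, beside 0.06. In edgeR 0 members were called in either state, against 6.4% of all genes tested in fasted mice and 4.72% in fed mice. DESeq2 and limma voom called 0 too, against 9.36% of all genes in fasted mice and 7.69% in fed mice with DESeq2, and 5.78% and 4.87% with limma voom. At an unadjusted p under 0.05 it was 1 member in each state, against 19.3% of all genes tested in fasted mice and 16.7% in fed mice. In fasted mice it was Rps2, at 854, 981 and 961 CPM in fasted PC libraries, against 834, 636 and 700.5 CPM in fasted PP libraries, a log2 difference of 0.37 ± 0.14 (SE; edgeR adjusted p = 0.17). In fed mice it was Rpsa, at 223, 229 and 230.0 CPM in fed PC libraries, against 296, 292 and 259.6 CPM in fed PP libraries, a log2 difference of -0.31 ± 0.14 (SE; edgeR adjusted p = 0.28). Both pairs of groups were free of overlap, and neither passed the test over all genes.

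The count of genes called higher in fasted PC varied widely between fits, while the size of the change did not. In place of 7 (8.75% of members, against 11.1% of all genes tested), it was 48 (60%) when only the 6 PC libraries were fitted, against 11.9% of all genes in that fit. With library totals in place of TMM scaling it was 0, against 8.48%. It was 24 (30%) without fasted PP replicate 1, against 10.4%, and 18 (22.5%) without fed PP replicate 3, against 10.6%, libraries that do not enter the contrast, and 51 (63.8%) without both, against 11.1%. It was 0 without any 1 of fasted PC replicates 1 and 2, fed PC replicates 1, 2 and 3 and fed PP replicate 2, against 6.39% to 9.57% of all genes. It was 1 without fasted PC replicate 3, against 8.25%, and 4 without fasted PP replicate 2, against 9.91%. DESeq2 called 23 (28.8%), against 12.4%, limma voom 8 (10%), against 10.8%, and the fit with the replicate number as a block 18 (22.5%), against 11.5%. With a correction for transcript length, chosen after seeing the data, it was 36 (45%), against 12.1%. The share called higher was larger among members than among all genes in 7 of 24 alternatives and smaller in the other 17. The median log2 fold change stayed between 0.26 and 0.34 in all of these fits, with 77 or 78 of 80 above 0. With library totals alone it was 0.26, beside a median of -0.07 over all genes.

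Other measures also differed between the PC groups, and their part in the members' change was not tested. Red cell markers, all 5 of which were tested with none called, summed to 5.05 to 451 CPM in fasted PC libraries and 12.4 to 50.8 CPM in fed PC libraries. Their median log2 fold change with fasting was 3.60 in PC and 3.48 in PP, with 4 of 5 above 0 in each. In PP they summed to 5.13 to 143 CPM in fasted and 8.97 to 11.2 CPM in fed libraries. The share of mitochondrially encoded counts was 6.30% to 7.44% in fasted PC and 7.16% to 7.92% in fed PC libraries. Periportal markers summed to 9786 to 12920 CPM in fasted PC and 4716 to 5820 CPM in fed PC libraries, with 4 of 15 called higher. The same list was also higher after fasting in PP, at 20088 to 26518 CPM in fasted PP and 12214 to 15246 CPM in fed PP libraries. Its median log2 fold change was 0.67 in PC, with 14 of 15 above 0, and 0.60 in PP, with 11 of 15 above 0. Lymphocyte markers summed to 2.55 to 4.34 CPM in fasted PC and 0.543 to 1.39 CPM in fed PC libraries, where Cd2, Ltb and Nkg7 were at 0. Cholangiocyte markers summed to 13.8 to 25.8 CPM in fasted PC, where Epcam was at 0, and to 25.8 to 30.6 CPM in fed PC libraries, with a median log2 fold change of -0.56 and 1 of 5 called lower. Stellate cell markers summed to 4.61 to 5.34 CPM in fasted PC and 5.24 to 23.9 CPM in fed PC libraries, with a median of -1.09 over 4 tested and 0 called. Endothelial markers summed to 9.28 to 14.5 CPM in fasted PC and 11.7 to 19.1 CPM in fed PC libraries, with 1 of 8 called lower, and Kupffer cell markers to 0.912 to 6.05 CPM in fasted PC and 2.26 to 8.05 CPM in fed PC libraries, with 0 of 6 called. Without fasted PC replicate 1, the library with low Glul, the median change of the members was 0.31.

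Of genes close to the members that the pattern did not take, Fau, made as a fusion to a ubiquitin-like protein, had a log2 fold change of 0.38 in PC and 0.34 in PP. Rack1, a scaffold on the small subunit, had 0.35 and 0.13, Rpl36al, a near copy of Rpl36a, 0.01 and 0.03, and Rps27rt, a look-alike of Rps27, 0.35 and -0.80. These 4 did not pass the test in either zone, with edgeR adjusted p from 0.0868 for Rack1 to 0.97 for Rpl36al in PC. Rps4l, an annotated pseudogene and so no member, had -0.61 ± 0.18 (SE; edgeR adjusted p = 0.032) in PC and -0.12 ± 0.19 (SE; edgeR adjusted p = 0.71) in PP.

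Elongation factors and other mRNAs with a TOP motif rose in part. Of 17 tested, 7 were called higher and 0 lower in PC, with a median of 0.35, and 3 were called higher and 0 lower in PP, with a median of 0.18. The 7 make up 41.2% of the list, against 11.1% of all genes tested called higher in PC, and the 3 make up 17.6%, against 8.39% in PP. Eif4b, a helper of the mRNA helicase Eif4a, averaged 472 ± 57.3 CPM in fasted PC and 201 ± 21.0 CPM in fed PC (SD, n = 3 each), a log2 difference of 1.23 ± 0.15 (SE; edgeR adjusted p = 0.00019). In PP the change of Eif4b was 0.90 ± 0.14 (SE; edgeR adjusted p = 0.0014). Eef2, which moves the ribosome along the mRNA, had 0.68 ± 0.11 (SE; edgeR adjusted p = 0.0013) in PC and 0.40 ± 0.11 (SE; edgeR adjusted p = 0.028) in PP. Npm1, a nucleolar chaperone of ribosome assembly, had 0.65 ± 0.10 (SE; edgeR adjusted p = 0.00076) in PC and 0.36 ± 0.10 (SE; edgeR adjusted p = 0.023) in PP.

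Genes for ribosome assembly were called lower more often than higher. Of 85 tested, 8 were called higher and 25 lower in PC, with a median of -0.18, and 3 higher and 22 lower in PP, with a median of -0.25. Those called lower make up 29.4% of the list in PC, against 10.2% of all genes tested, and 25.9% in PP, against 9.51%. Heatr1, a part of the small-subunit processome, averaged 8.58 ± 1.41 CPM in fasted PC and 24.8 ± 5.63 CPM in fed PC (SD, n = 3 each). Its log2 fold changes were -1.53 ± 0.23 (SE; edgeR adjusted p = 0.00073) in PC and -1.17 ± 0.22 (SE; edgeR adjusted p = 0.0039) in PP. Polr1e, a subunit of RNA polymerase I, had -1.19 ± 0.28 (SE; edgeR adjusted p = 0.0093) in PC and -1.26 ± 0.27 (SE; edgeR adjusted p = 0.0072) in PP. Bysl, an assembly factor of the small subunit, averaged 12.2 ± 2.26 CPM in fasted PP and 28.1 ± 2.97 CPM in fed PP (SD, n = 3 each), a log2 difference of -1.21 ± 0.15 (SE; edgeR adjusted p = 0.0003). In the other direction, Rcl1, which acts in cleavage of ribosomal RNA precursors, had 1.11 ± 0.12 (SE; edgeR adjusted p = 0.00011) in PC and 1.12 ± 0.12 (SE; edgeR adjusted p = 0.00014) in PP. Taf1d, a part of the initiation complex of RNA polymerase I, and Imp3, of the small-subunit processome, also rose in both zones.

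**Figure D5:**
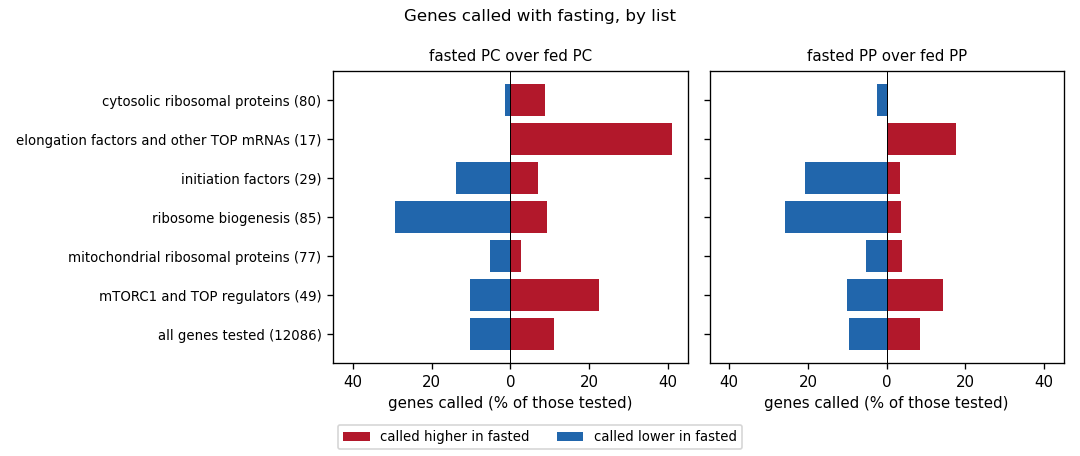
Genes called higher (red, to the right) and lower (blue, to the left) in fasted than in fed hepatocytes, as a percentage of the genes tested in each list (number in brackets), for PC on the left and PP on the right. Ribosome assembly genes were called mostly lower, and TOP mRNAs of elongation factors and others only higher. In this fit, across all libraries, ribosomal protein genes lie below the percentage of all genes tested. Their percentage called higher in PC was above that of all genes in 7 of 24 alternative fits. Median log2 fold changes in PC were 0.35 for the TOP mRNAs and 0.34 for ribosomal protein genes.

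Initiation factors and mitochondrial ribosomal proteins gave mixed counts. Of 29 initiation factors, 2 were called higher and 4 lower in PC, and 1 higher and 6 lower in PP. As shares these are 6.90% higher and 13.8% lower in PC, against 11.1% and 10.2% of all genes tested, and 3.45% higher and 20.7% lower in PP, against 8.39% and 9.51%. Eif1, which helps select the start codon, rose by 0.64 ± 0.15 (SE; edgeR adjusted p = 0.011) on the log2 scale in PC, and Eif2b4, of the exchange factor for Eif2, had -0.68 ± 0.10 (SE; edgeR adjusted p = 0.0011) in PP. Of 77 mitochondrial ribosomal protein genes, 2 were called higher and 4 lower in PC, with a median of -0.00, and 3 higher and 4 lower in PP, with a median of -0.03, each at most 5.19% of the list and below the share of all genes tested. Mitochondrial and cytosolic ribosomal proteins were not tested against each other.

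Among 49 genes of mTORC1 and of the regulators of TOP mRNAs, 11 were called higher and 5 lower in PC, and 7 higher and 5 lower in PP. As shares these are 22.4% higher and 10.2% lower in PC, against 11.1% and 10.2% of all genes tested, and 14.3% higher and 10.2% lower in PP, against 8.39% and 9.51%. Maf1, a repressor of RNA polymerase III held in check by mTORC1, had 1.73 ± 0.26 (SE; edgeR adjusted p = 0.00084) in PC and 1.45 ± 0.26 (SE; edgeR adjusted p = 0.0028) in PP. Sesn2, a leucine sensor that restrains mTORC1, had 1.29 ± 0.17 (SE; edgeR adjusted p = 0.00035) in PC and 1.46 ± 0.17 (SE; edgeR adjusted p = 0.00023) in PP. Eif4ebp1, a translation repressor and mTORC1 target, had 0.78 ± 0.17 (SE; edgeR adjusted p = 0.0062) in PC and 0.30 ± 0.17 (SE; edgeR adjusted p = 0.24) in PP. Larp1 had 0.02 in PC and -0.10 in PP, neither called. Myc, an activator of ribosome genes, averaged 11.4 ± 6.03 CPM in fasted PC and 3.85 ± 2.66 CPM in fed PC (SD, n = 3 each), a difference that did not pass the test (edgeR adjusted p = 0.0957).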

How the data were processed

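Total RNA of 12 hepatocyte libraries was sequenced. The authors deposited estimated counts per gene, and the submitters' processing notes give kallisto 0.46.0, a transcript quantifier, and mm10. The transcript annotation and the step from transcripts to genes are not given in the sources used here. The NEBNext Ultra kit named in the labels' protocols does not mark strand. Between 28.0% and 32.8% of values per library were not whole, and all were rounded before testing. Coordinates, lengths and symbols came from GENCODE on GRCm38, and 27645 of 28030 identifiers matched. All 12 columns carried the library names of the labels, and 0 were left unused.

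Genes were filtered with filterByExpr, scaled by TMM and fitted across all 12 libraries, 4 group means, with the quasi-likelihood test of edgeR 4.0.16 in R 4.3.3 (robust; 8 residual degrees of freedom), with Benjamini-Hochberg adjustment over 12086 genes and calls at 0.05. SE is the unshrunk log2 fold change over the root of F. The fits were tested on simulated data in which genes varied independently and changed genes had larger fold changes than the members' median. Small shifts common to many genes were not simulated. CPM uses TMM-scaled library sizes, except in sums of markers, which use library totals. Shifts of libraries are medians of log2(CPM + 1) minus the group mean. TPM uses the transcript with the longest coding sequence. Alternatives included DESeq2 1.42.0, limma 3.58.1 (voom), other scalings, no filter, the replicate number as a term and leaving out libraries. Libraries of one group differed beyond sampling noise (chi-square per degree of freedom 25.8 to 86.5). Depth limits rows of about 1 CPM, such as that of Rps12. Of the counts of Rps12 and its look-alikes, 99.3% stood on look-alike rows.

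Members and lists were chosen with earlier results of these data known. Named were members called in a contrast, the 4 highest and 4 lowest by log2 fold change per contrast, the 5 highest and 5 lowest by TPM, a fixed set of members, and up to 3 called genes per direction of a list, of which some are given. A few genes that meet this rule are not reported here.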

Additional observations from a re-analysis of the deposited data

How the results depend on the processing

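Each fit was repeated under up to 24 alternatives. Fasting in PC had 7 genes called higher, against 11.1% of all genes tested. This became 0 with library totals, against 8.48%, and 0 with no filter on low counts, against 4.91%. It was 48 with only the 2 groups compared, against 11.9%, 23 with DESeq2, against 12.4%, and 18 with the replicate block, against 11.5%. It ranged from 0 to 24 when 1 library was left out, against 6.39% to 10.6%. Of alternatives chosen after seeing the data, length correction gave 36, against 12.1%. Leaving out fasted PP replicate 1 with fed PP replicate 3 gave 51, against 11.1%. The median in PC was 0.26 with library totals and 0.30 with no filter, and 0.31 to 0.34 when 1 library was left out. Leaving out both PP libraries gave 1 gene lower in PC than PP in fed mice, against 1.54% of all genes tested, 7 (8.75%) higher in PC than PP in fasted mice, against 2.27%, a median of -0.15 for fasting in PP and 0.45 for the difference between zones. The same fit called 3 genes lower with fasting in PP, against 4.26% of all genes, and Rpl22l1 was not among them (edgeR adjusted p = 0.12). When 1 library was left out, 0 to 1 genes were called higher in PC than PP in fasted mice (1 without fasted PC replicate 1, Rpl22l1), against 1.64% to 3.91% of all genes. With fasting in PP, 1 to 2 were called lower, against 5.96% to 10.3%, and the median there ran from -0.03 to 0.26. The medians of PC over PP ran from -0.01 to 0.25 in fasted and from -0.19 to 0.00 in fed mice, and that of the difference between zones from 0.06 to 0.34.

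The share of counts without the 20 most abundant genes was 2.00% in fasted PC, 1.92% in fasted PP, 1.67% in fed PC and 1.81% in fed PP. With look-alike rows added it was 1.60% in fasted PC and 1.35% in fed PC, and with annotated pseudogenes 1.30% in fed PC. The median over members within a library averaged 374 TPM over the 12 libraries (the median of the members' means was 379 TPM), and 317 TPM with the mean length of all coding transcripts. The cause of these differences was not tested. No result reversed its direction among those called.

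Same-numbered libraries of 2 groups did not deviate together in every pair (correlations from -0.15 to 0.39). Between PC and PP of replicates 1, 2 and 3, correlations were 0.26, -0.15 and 0.15 in fasted mice. In fed mice they were 0.39, -0.02 and 0.26. Such values cannot settle whether 2 libraries came from the same mouse, and numbers were not taken as pairs. The replicate block gave 18 genes called higher with fasting in PC, in place of 7, and changed no other count of called members. With 3 libraries a group, changes of the size seen here lay near the limit of the test in the fit across all 12 libraries. With only the 2 PC groups fitted, also 3 libraries each, 48 of 80 members were called higher with fasting, against 11.9% of all genes.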
